A study of Mus musculus with 203 samples.

Results

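Transcripts of 9 neutrophil granule and alarmin genes were measured in the lungs of mice exposed to house dust mite (HDM) extract, cigarette smoke (CS) and dexamethasone (DEX). The genes were chosen by name: S100a8, S100a9, Retnlg, Camp, Ngp, Ltf, Lcn2, Mpo and Elane, 9 of the 43346 gene identifiers in the deposited table of estimated counts. Airway and parenchyma were separated by dissection from the lungs of female Balb/C mice that the labels give as 18 to 20 weeks old, and RNA was sequenced in libraries that fall into 20 groups of week, tissue and exposure. At 3 weeks, 10 airway and 10 parenchyma libraries came from mice given HDM intranasally on 5 days a week for 3 weeks, and 11 airway and 12 parenchyma libraries from controls given phosphate buffered saline (PBS). At 11 weeks, each of 16 groups held 10 libraries. They crossed HDM or PBS (HDM continued 3 times a week from week 4 to week 11) with cigarette smoke or normal air (smoke 2 times a day, 5 days a week, for 8 weeks) and with DEX given during week 11 or no DEX. The groups are named by exposure, so that HDM.CS.DEX mice received all 3 agents and PBS.AIR mice received none. The labels do not say which airway and parenchyma libraries came from 1 mouse, nor whether every library of a group came from a mouse of its own, so p-values measure the spread between libraries.

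Neutrophils carry their antimicrobial proteins in granules that are filled in sequence as the cell matures in bone marrow. Azurophil granules, filled first, hold myeloperoxidase (Mpo), an enzyme that makes hypochlorous acid, and neutrophil elastase (Elane), a serine protease. Specific granules hold lactoferrin (Ltf), an iron-binding protein, lipocalin 2 (Lcn2), which binds bacterial siderophores, cathelicidin (Camp), an antimicrobial peptide precursor, and neutrophilic granule protein (Ngp). S100a8 and S100a9 are calcium-binding proteins that pair as calprotectin, fill much of the neutrophil cytosol and act as alarmins when released. Retnlg belongs to the resistin-like (RELM) family and is made by mature neutrophils. Transcripts for granule proteins are made mainly in marrow precursors, whereas those for S100a8 and S100a9 persist in circulating cells. Ltf and Lcn2 are also made by secretory epithelium.

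The members share promoter letters unevenly. Promoter windows of 300 bases, from 250 bases before the annotated start to 50 after it, were read from RefSeq sequences on GRCm38.p6, the build that the files call mm10, and all 9 members matched. The windows of the calprotectin pair are shown because these transcripts varied together within groups, and those of Lcn2 and Ltf because these genes are also expressed by epithelium and had the largest changes with HDM and between tissues. The S100a8 window is chr3:90668821-90669120 on the plus strand, that of S100a9 chr3:90695672-90695971 on the minus strand, that of Lcn2 chr2:32387690-32387989 on the minus strand and that of Ltf chr9:111019042-111019341 on the plus strand. Each sequence runs 5′ to 3′ and capitals mark matches, on either strand, to TTGCNNAA (recognised by C/EBP factors), TATAAA (the TATA box), GAGGAA (the core of the ETS factor PU.1, encoded by Spi1) or the NF-kB motif.
S100a8: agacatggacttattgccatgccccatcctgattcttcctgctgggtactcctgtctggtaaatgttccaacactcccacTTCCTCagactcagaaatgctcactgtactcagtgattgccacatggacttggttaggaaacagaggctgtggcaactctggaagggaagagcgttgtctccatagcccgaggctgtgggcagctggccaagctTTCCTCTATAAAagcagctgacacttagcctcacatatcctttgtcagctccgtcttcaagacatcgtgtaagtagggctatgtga
S100a9: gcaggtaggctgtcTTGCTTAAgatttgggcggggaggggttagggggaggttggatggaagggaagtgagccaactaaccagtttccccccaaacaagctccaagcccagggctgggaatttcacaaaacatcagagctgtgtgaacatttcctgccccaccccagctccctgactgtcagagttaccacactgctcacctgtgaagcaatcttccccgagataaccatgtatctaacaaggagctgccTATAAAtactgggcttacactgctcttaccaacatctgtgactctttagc
Lcn2: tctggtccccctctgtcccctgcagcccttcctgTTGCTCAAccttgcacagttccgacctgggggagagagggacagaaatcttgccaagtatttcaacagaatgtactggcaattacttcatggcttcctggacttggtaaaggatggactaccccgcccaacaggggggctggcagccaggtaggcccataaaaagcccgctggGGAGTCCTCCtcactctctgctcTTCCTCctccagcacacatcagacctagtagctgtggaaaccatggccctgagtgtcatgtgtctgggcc
Ltf: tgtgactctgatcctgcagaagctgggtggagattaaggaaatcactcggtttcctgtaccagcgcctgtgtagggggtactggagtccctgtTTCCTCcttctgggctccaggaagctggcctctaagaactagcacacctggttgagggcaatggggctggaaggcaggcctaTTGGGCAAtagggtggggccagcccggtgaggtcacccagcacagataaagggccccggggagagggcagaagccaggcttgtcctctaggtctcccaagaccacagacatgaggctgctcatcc
TTGCNNAA occurred in 5 of the 9 windows (S100a9, Retnlg, Ngp, Ltf and Lcn2) and in 10.8% of 27025 promoter windows of the same length. GAGGAA occurred in 5 (S100a8, Ltf, Lcn2, Mpo and Elane) against 28.3% of all windows, and TATAAA in 2 (S100a8 and S100a9) against 14.2%. The NF-kB motif occurred in 2 (Camp and Lcn2) against 10.9%. Neither TTCNNNGAA, the STAT motif, found in 8.47% of all windows, nor the glucocorticoid response element, found in 0.226%, had a match in the 9 windows. In S100a8 the TATAAA match directly follows a GAGGAA match read on the other strand. It lies at bases -30 to -25 from the annotated start, whereas that of S100a9 lies at 0 to 5, not upstream of it. A match describes letters only.

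Library totals ran from 13003087 to 40240680 counts (median 28090612). Values are given as CPM, counts scaled to a common library size after TMM normalisation, and log2 fold changes come from limma-voom fits across all genes that passed a low-count filter, 17381 at 3 weeks and 18250 at 11 weeks. A gene was called at a Benjamini-Hochberg adjusted p under 0.05 with a log2 fold change of at least 1 or at most -1, and a difference between effects at an adjusted p under 0.05. The labelled tissue was borne out in part by its markers: Krt5, a basal cell keratin, had a median of 14.8 CPM in airway and 0.289 in parenchyma, but Scgb1a1, a club cell secretoglobin (29141 against 21053 CPM), and Sftpc, an alveolar surfactant gene (8389 against 14026), overlapped between the dissections. A single 11-week HDM.AIR.DEX parenchyma library had 33.8% of its counts in Gm42418, a gene that overlaps ribosomal RNA, and leaving it out changed no call. A parenchyma and an airway library of the PBS.CS group carry codes out of the order of the others (airway odd, parenchyma even), and their markers matched their labels. Counts that changed without this pair are given beside the value. In every pair of an odd code and the next even code, the libraries were an airway and a parenchyma library of 1 exposure group, and their deviations from the group means went together for Retnlg (r = 0.646), Lcn2 (0.621), S100a9 (0.585) and S100a8 (0.515), but not for Mpo (0.029), with a median r of 0.298 over all genes. The labels do not say that a pair is 1 mouse, so the fits treat libraries as independent, and calls that changed with code pairs as a random block are given beside the value.

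The members differed widely in level. Per kilobase of exon, the 3-week PBS parenchyma medians were 466 CPM for S100a9, 141.5 for S100a8, 51.8 for Lcn2, 29.9 for Retnlg, 7.10 for Ltf, 0.639 for Camp and 0.423 for Ngp. Camp reached at most 88 counts in a library and Ngp at most 217. Mpo reached at most 21 counts, lay at 0 in 63 libraries of both times, and passed the low-count filter at 11 weeks but not at 3 weeks. It passed through 16 libraries of HDM mice and 0 of PBS mice, so that a difference between HDM and PBS was built into its selection, and counts of members called are given also without it. Elane reached at most 4 counts, exceeded 3 counts in 2 libraries and never passed the filter. The ratio of the highest to the lowest of the 20 group medians was 57.4 for Ltf, 23.2 for Lcn2, 20.6 for S100a8, 19.5 for S100a9, 10.8 for Ngp, 8.32 for Camp and 6.36 for Retnlg. With the groups of a member ordered by median, the ranges of each of the 19 neighbouring pairs overlapped, so neighbours in that order did not separate. In all, 7 members were tested at 3 weeks and 8 at 11 weeks, and Mpo at 3 weeks and Elane throughout were compared by permutation of their log2 CPM.

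**Figure D1:**
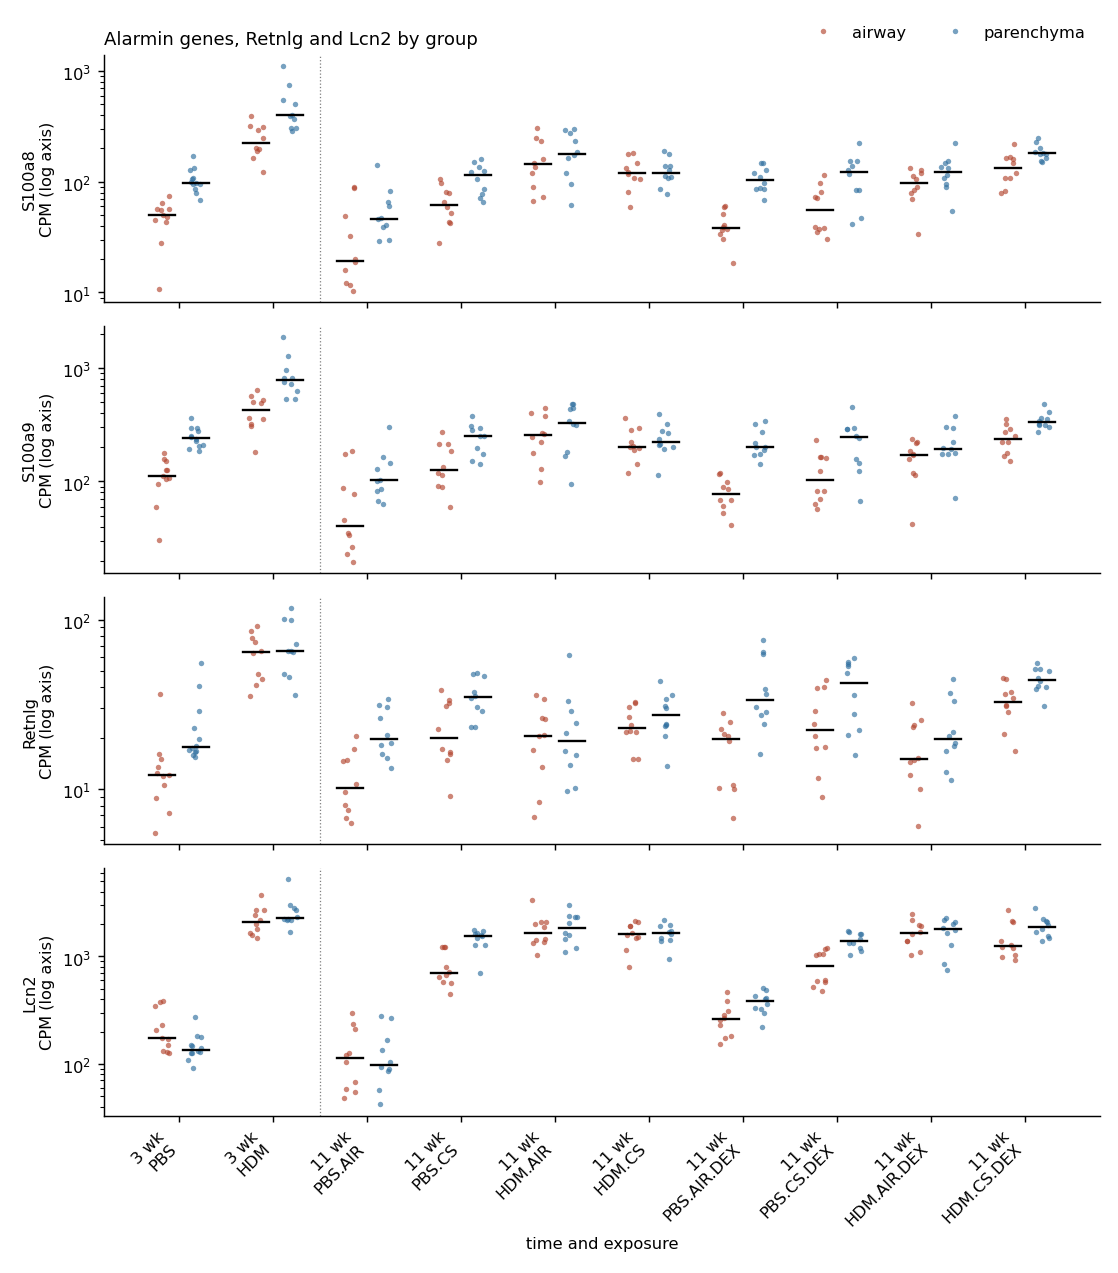
S100a8, S100a9, Retnlg and Lcn2 in TMM-scaled CPM (log axis) in each library, by group of week, exposure and tissue, with 1 point per library and a bar at each group's median. S100a8 medians ran from 19.4 CPM in 11-week PBS.AIR airway to 399 CPM in 3-week HDM parenchyma, and Lcn2 medians from 98.5 to 2285 CPM.

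S100a8 and S100a9 rose with HDM at 3 weeks in both tissues. In airway, S100a8 was 10.8 to 74.9 CPM (median 49.9) in PBS libraries and 122.02 to 389.8 CPM (median 225) in HDM libraries (log2 fold change 2.36 ± 0.24 (SE), adjusted p = 1.4e-11). In parenchyma it was 68.7 to 169.3 CPM (median 98.2) and 289.7 to 1116 CPM (median 399) (log2 fold change 2.09 ± 0.24 (SE), adjusted p = 3.6e-10). In both tissues every HDM library lay above every PBS library. S100a9 gave the same separation, at 30.4 to 178.3 CPM (median 110.98) against 182.8 to 634 CPM (median 424) in airway and 183.9 to 360.2 CPM (median 243) against 528 to 1872 CPM (median 786) in parenchyma, with log2 fold changes of 1.91 (adjusted p = 6.9e-10) and 1.69 (adjusted p = 2.4e-08). In these bulk tissues, fewer cells of a type and less RNA per cell cannot be told apart, and neither can more cells and more RNA per cell. Of the 7 members tested, 6 were called higher with HDM in airway (S100a8, S100a9, Retnlg, Camp, Ngp and Lcn2), where 24% of all genes tested were called in either direction and 12.1% were called higher. In parenchyma 6 were also called higher, with Ltf in the place of Camp, against 29.6% of all genes called and 14.5% called higher. Camp had an adjusted p under the threshold in parenchyma (0.97 (adjusted p = 0.0099)) but missed the fold threshold. It was called there with DESeq2 size factors in place of TMM (1.06) and without the low-count filter (1.08). It was also called with all libraries in 1 fit (1.03) and without libraries whose member values stood far from their group (1.02). The median log2 fold change over the members tested was 2.29 in airway and 1.87 in parenchyma, beside -0.07 and -0.13 over all genes tested.

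The ratio of the calprotectin transcripts within a library also moved. S100a8 was 0.356 to 0.498 (median 0.439) of S100a9 in PBS airway and 0.497 to 0.667 (median 0.582) in HDM airway, in CPM. In parenchyma the ratio was 0.358 to 0.470 (median 0.424) and 0.455 to 0.675 (median 0.555). At 11 weeks the airway medians were 0.492 in PBS.AIR, 0.590 in HDM.AIR and 0.457 in PBS.CS. S100a8 thus approached S100a9 in the HDM groups and not in the smoke group, which is given as a description without a test.

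Lcn2 had the largest log2 fold change with HDM among the 7 members tested at 3 weeks. It was 126.3 to 381 CPM (median 173.01) in PBS airway and 1469.8 to 3771 CPM (median 2098) in HDM airway (log2 fold change 3.37 ± 0.22 (SE), adjusted p = 3.7e-17). In parenchyma it was 90.6 to 271 CPM (median 135.8) and 1689 to 5218 CPM (median 2285) (log2 fold change 4.10 ± 0.21 (SE), adjusted p = 1.6e-20). The lowest HDM library lay several times above the highest PBS library in each tissue. Retnlg, the neutrophil RELM gene, was 5.51 to 36.4 CPM (median 12.1) and 35.5 to 92.2 CPM (median 64.4) in airway, with a narrow overlap, and its log2 fold changes were 2.29 (adjusted p = 8.6e-11) in airway and 1.56 (adjusted p = 8.6e-08) in parenchyma. Among the other RELM genes, Retnlb (4.16) and Retnla (3.82), which are known from epithelium and alternatively activated macrophages, rose in 3-week HDM airway, and Retn, the adipocyte resistin, fell (-2.51).

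The level of Ltf, unlike that of the alarmins, was far higher in airway than in parenchyma. In 3-week PBS libraries it was 372 to 1474 CPM (median 578) in airway and 11.3 to 75.2 CPM (median 24.5) in parenchyma, with no overlap (log2 fold change 4.78 ± 0.29 (SE), adjusted p = 7.6e-16). With HDM it was 75.1 to 209 CPM (median 126.9) in parenchyma (log2 fold change 2.24 ± 0.27 (SE), adjusted p = 7.2e-10) and 336 to 3435 CPM (median 740.1) in airway, where the test gave 0.35 (adjusted p = 0.32). The HDM effect on Ltf differed between the tissues, being lower in airway by 1.89 log2 units (adjusted p = 0.002). It was the 1 member of 7 whose effect differed, where 17.3% of all genes did, and edgeR (adjusted p = 0.047), DESeq2 (0.022) and blocks of 20 library codes (0.035) added Lcn2, for which limma gave -0.73 (0.092). Of the genes that differed in limma, 1883 had the higher effect in airway and 1119 in parenchyma, or 1096 and 1509 with DESeq2 size factors in place of TMM. In the PBS libraries themselves, 11.9% of genes were called between tissues, and 5 members were among them: Ltf was higher in airway, and S100a8 (-1.21), S100a9 (-1.22), Camp (-1.36) and Ngp (-1.41) were lower there. S100a9 did not overlap between tissues, each airway library lying below each parenchyma library.

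**Figure D2:**
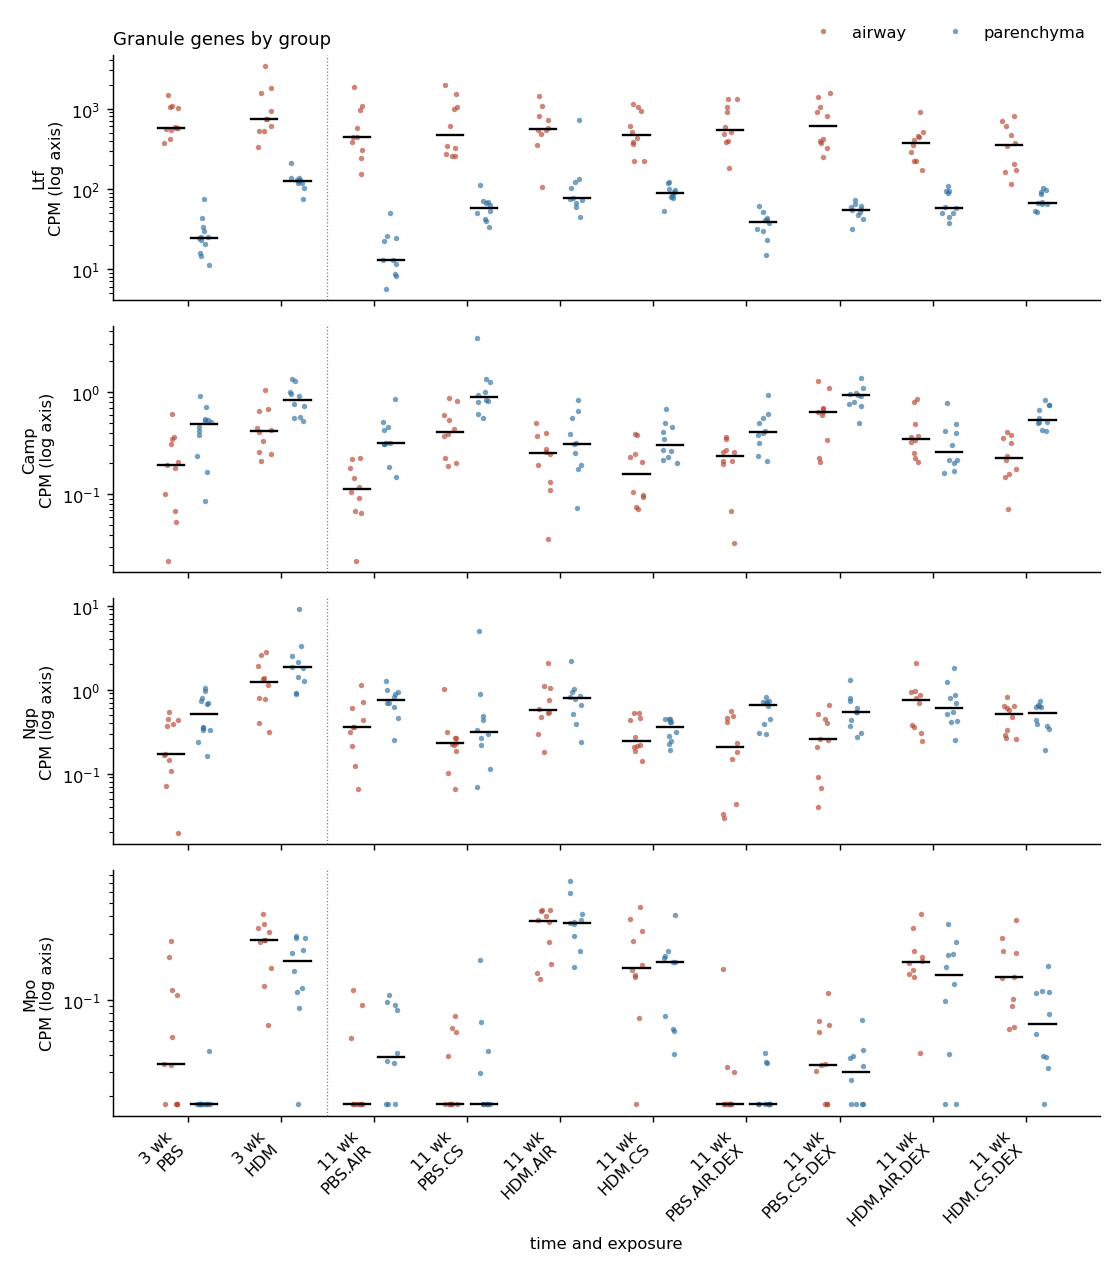
Ltf, Camp, Ngp and Mpo in TMM-scaled CPM (log axis) in each library, by group of week, exposure and tissue, with 1 point per library and a bar at each group's median. Libraries at 0 are drawn at the lower edge of the axis. Ltf medians lay between 357 and 740.1 CPM in airway and between 12.9 and 126.9 CPM in parenchyma, and no library held more than 9.01 CPM of Camp, Ngp or Mpo.

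Camp and Ngp were present at low counts. At 3 weeks Ngp was 0 to 0.537 CPM (median 0.171) in PBS airway and 0.315 to 2.79 CPM (median 1.22) in HDM airway, and its log2 fold changes with HDM were 2.49 (adjusted p = 6.8e-05) in airway and 1.87 (adjusted p = 0.00016) in parenchyma. Camp was 0 to 0.610 CPM (median 0.195) and 0.210 to 1.05 CPM (median 0.419) in airway (1.44, adjusted p = 0.0022). The HDM and PBS ranges overlapped for both genes. Mpo at 3 weeks was 0 to 0.266 CPM (median 0.0342) in PBS airway, where 4 of 11 libraries were at 0, and 0.0659 to 0.417 CPM (median 0.272) in HDM airway, where none was. In parenchyma Mpo lay at 0 in 11 of 12 PBS libraries and in 1 of 10 HDM libraries, and its mean was at least 1.37-fold higher with HDM, PBS libraries being set at the floor of 3 counts per library. The differences in mean log2 CPM were 1.32 in airway (adjusted p = 0.0094) and 1.62 in parenchyma (adjusted p = 0.001) by a two-sided permutation test with 100000 resamples, adjusted over 25 comparisons. Elane did not exceed 3 counts in any 3-week library, and none of its comparisons passed at either time.

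Genes that accompany the members in neutrophils were read from lists written by hand. Of 21 neutrophil markers, 16 were called higher with HDM in 3-week airway and 16 in parenchyma. The largest changes in airway were those of Clec4e (4.19), the myeloid C-type lectin Mincle, and Stfa2 (4.09), a cysteine protease inhibitor, and in parenchyma those of Clec4e (4.80) and Il1r2 (4.66), the decoy receptor for interleukin 1. Ly6g, the surface antigen that defines mouse neutrophils, had log2 fold changes of 3.35 and 2.79. Their summed level was 256 to 347 CPM (median 287) in PBS airway and 486 to 1575 CPM (median 1053) in HDM airway. Of 9 other genes of specific and gelatinase granules, 8 were tested and 7 were called higher in each tissue. Olfm4, a matrix glycoprotein of specific granules, led in both tissues (3.96 in airway and 4.44 in parenchyma), followed by Cd177 (3.28), a neutrophil surface protein, in airway and by Adam8 (3.98), a membrane metalloprotease, in parenchyma. Hp, which encodes haptoglobin, was not called (-0.78 and -0.22). Of 4 azurophil companions of Mpo and Elane, Prtn3, a serine protease, was the 1 that passed the filter, and it was not called (-0.78 (adjusted p = 0.013) in airway).

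The rest of the S100 family was called in both directions. Of 14 listed genes, 12 were tested, and in 3-week airway 3 were lower with HDM and none was higher: S100a3 (-1.24), S100a7a (-1.08) and S100a16 (-1.01). In parenchyma S100a4 (1.15) and S100a11 (1.05) were higher and 3 others lower, led by S100g (-1.50) and S100a16 (-1.34). Of all genes tested, 24% were called in airway and 29.6% in parenchyma. Among 7 receptors and binding partners, Fpr2, a formyl peptide receptor that binds cathelicidin, rose in both tissues (2.19 and 2.20). Tlr4, a receptor for calprotectin, was called in parenchyma (1.31) and not in airway (0.94), and Ager, also an alveolar type I cell marker, fell in parenchyma (-1.18). All 6 listed neutrophil attractants rose with HDM in both tissues, led in airway by the cytokine Il17a (4.06) and the chemokine Cxcl5 (4.05) and in parenchyma by the chemokine Cxcl3 (5.05) and Il17a (4.82). Of 6 factors of granulopoiesis, 3 rose in each tissue: Cebpe (3.33 and 3.79), which drives specific granule genes, Spi1 (1.98 and 2.56) and Gfi1 (1.29 and 1.56). The protease inhibitors Slpi (3.21 and 2.93) and Serpina3n (1.84 and 2.69) rose and Serpinb1a did not pass the fold threshold. Of 6 epithelial antimicrobial genes, 3 rose in airway and 4 in parenchyma, led by Saa3 (4.12 and 5.28), an acute phase protein, and Pigr (1.61 and 2.59), the receptor that carries polymeric immunoglobulin across epithelium. Bpifa1, a secreted protein of airway epithelium, fell in both tissues (-2.84 and -2.61) and Lyz1, an epithelial lysozyme, in parenchyma (-1.24).

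Markers of other cells moved in the same comparisons. All 6 erythroid markers fell with HDM in both tissues, their summed level being 2929.8 to 12313 CPM (median 7186) in PBS airway and 885 to 2223 CPM (median 1478) in HDM airway. Of 6 monocyte and macrophage markers, 3 rose in each tissue, with a summed level of 197.2 to 326 CPM (median 257) and 383 to 731 CPM (median 550.3) in airway. Of 7 eosinophil markers, 3 rose in each tissue. Of 5 airway markers, 2 fell in each tissue, with sums of 27241 to 83631 CPM (median 54838) and 13489 to 27805 CPM (median 19637) in airway. Bone and cartilage markers, which would accompany marrow, summed to at most 0.288 CPM in 3-week parenchyma, with 4 of 5 genes at a median of 0 counts in PBS and 5 of 5 in HDM. In airway they reached 22.2 CPM. The part of these cells in the members' values was not tested.

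**Figure D3:**
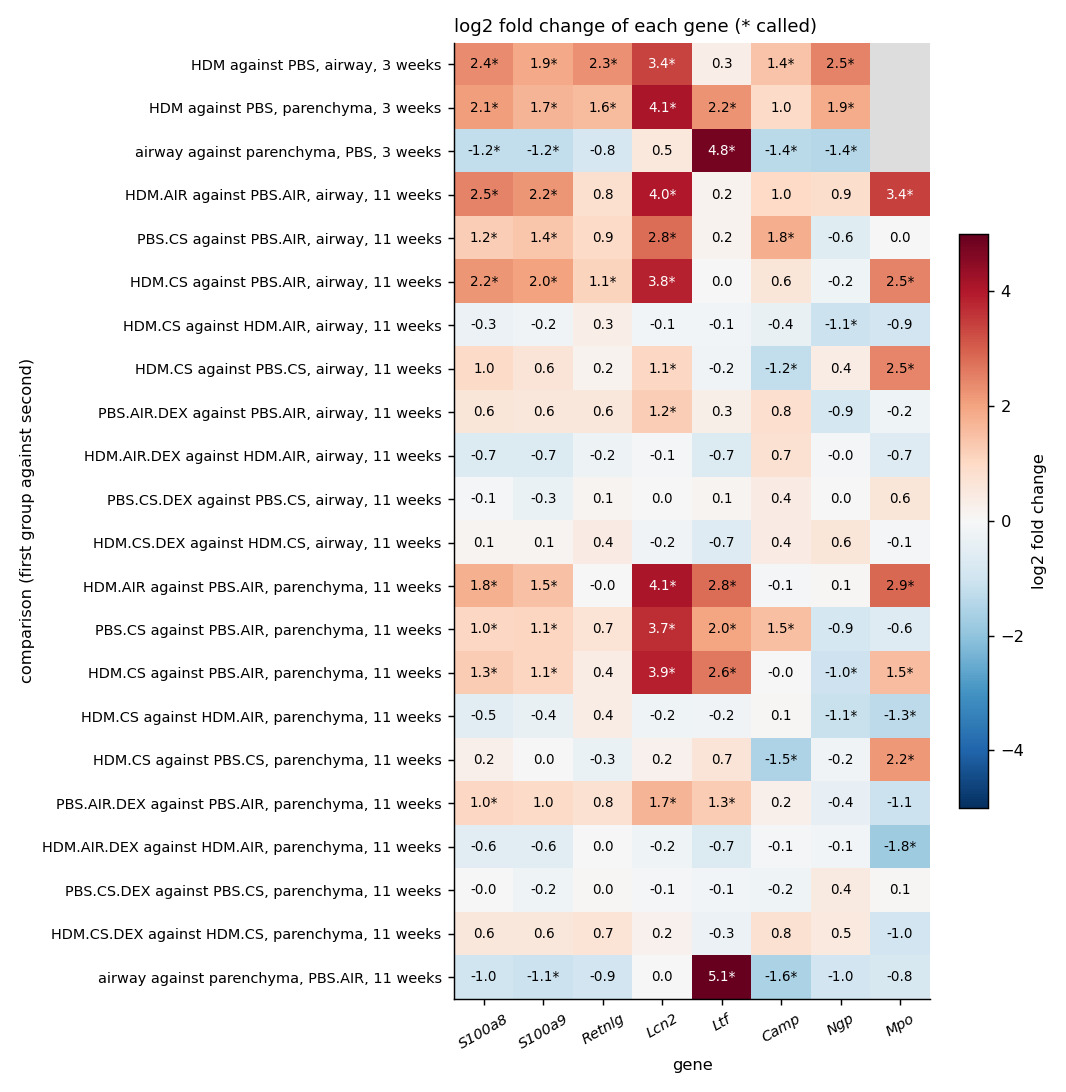
Heat map of the log2 fold change of each gene (columns) in each comparison (rows), with an asterisk where the change was called. Grey cells were not tested, as Mpo at 3 weeks. Lcn2 has log2 fold changes of 3.37 to 4.10 with HDM in the 4 comparisons of HDM with PBS in mice without smoke, and Ltf is called in parenchyma and not in airway.

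At 11 weeks, HDM.AIR mice again had higher levels than PBS.AIR mice of the alarmins, Lcn2 and Mpo. In airway S100a8 was 10.4 to 89.4 CPM (median 19.4) in PBS.AIR and 66.4 to 306 CPM (median 143.3) in HDM.AIR libraries (log2 fold change 2.48 ± 0.29 (SE), adjusted p = 9.2e-14). In parenchyma it was 29.2 to 142.4 CPM (median 46.4) and 62.2 to 302 CPM (median 180.1) (log2 fold change 1.80 ± 0.28 (SE), adjusted p = 9.7e-09). Unlike at 3 weeks, the ranges overlapped. Lcn2 was 47.97 to 300.4 CPM (median 113.4) and 1037 to 3376 CPM (median 1668) in airway and 42.02 to 276 CPM (median 98.5) and 1106 to 3039.6 CPM (median 1855) in parenchyma, without overlap, and its log2 fold changes were 3.98 (adjusted p = 1.3e-32) and 4.09 (adjusted p = 1.3e-33). S100a9 changed by 2.22 (adjusted p = 1.5e-11) and 1.46 (adjusted p = 6.8e-06).

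Mpo separated the HDM.AIR from the PBS.AIR libraries completely at 11 weeks, at a handful of counts, a difference that the filter had favoured. In airway it lay at 0 in 7 of 10 PBS.AIR libraries, with a highest value of 0.118 CPM, and was 0.142 to 0.448 CPM (median 0.371) in HDM.AIR (log2 fold change 3.43 ± 0.48 (SE), adjusted p = 3.4e-10). In parenchyma no PBS.AIR library exceeded 3 counts, HDM.AIR libraries were 0.171 to 0.720 CPM (median 0.361), and the mean was at least 3.39-fold higher in HDM.AIR, PBS.AIR libraries being set at the floor of 3 counts per library (adjusted p = 6.7e-09). All 10 HDM.AIR libraries of each tissue exceeded 3 counts. Without a filter, with every gene that had a count tested, the adjusted p-values were 4e-11 in airway and 2.1e-07 in parenchyma. Elane, its companion in azurophil granules, exceeded 3 counts in 1 HDM.AIR parenchyma library, and Prtn3 had log2 fold changes of -0.49 (adjusted p = 0.26) in airway and -0.84 (adjusted p = 0.048) in parenchyma.

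Ltf rose with HDM in 11-week parenchyma, from 5.65 to 50.4 CPM (median 12.9) to 44.8 to 729.6 CPM (median 76.1) (log2 fold change 2.81 ± 0.36 (SE), adjusted p = 9.2e-12). A single HDM.AIR library at 729.6 CPM stood far above the others, and with the libraries of outlying values left out the log2 fold change was 2.49. In airway Ltf was 151.2 to 1882 CPM (median 444) and 106.5 to 1444 CPM (median 563) (0.17 (adjusted p = 0.72)). The HDM effect in airway minus that in parenchyma was -2.64 log2 units (adjusted p = 4.3e-05), and Ltf was the 1 member of 8 for which this difference passed, against 27.6% of all genes. With code pairs as a random block 4 passed, as S100a9 (0.77, adjusted p = 0.04), Retnlg (0.79, 0.035) and Camp (1.08, 0.039) had higher effects in airway. In PBS.AIR mice the tissues differed for 3 members, with 16.1% of all genes called: Ltf was higher in airway (5.13), again without overlap, and S100a9 (-1.06) and Camp (-1.58) were lower there. S100a8 (-0.98) and Ngp (-0.97) lay just short of the fold threshold and passed it in the fit of both times (-1.01 for each) and without the pair out of code order, which made 5 members. The S100a9 call was lost in edgeR (-0.77, adjusted p = 0.015) and DESeq2 (-0.77, 0.011), where Ngp did not pass the p threshold (0.1 in each). Of 5 airway markers, all 5 were higher in airway in that comparison and all 6 parenchyma markers lower.

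Counted together, 4 of 8 members were called higher with HDM.AIR in airway (S100a8, S100a9, Lcn2 and Mpo), or 3 of 7 without Mpo, where 19.1% of genes were called. Retnlg, Camp and Ngp had adjusted p-values under the threshold there with log2 fold changes of 0.79 (adjusted p = 0.021), 0.99 (adjusted p = 0.032) and 0.86 (adjusted p = 0.048). Camp was called in edgeR (1.04), in DESeq2 (1.03), without the filter (1.03) and without the libraries of outlying values (1.004). Ngp did not pass the p threshold in edgeR (0.074), DESeq2 (0.079) or with DESeq2 size factors (0.058). Nor did it pass without the filter (0.069), in the fit of both times (0.079) or with blocks of 20 library codes (0.059). In parenchyma 5 were called higher, S100a8, S100a9, Lcn2, Mpo and Ltf, or 4 of 7 without Mpo, where 19.2% were called, and Retnlg (-0.00), Camp (-0.09) and Ngp (0.07) lay near 0. Of 21 neutrophil markers 16 were called higher in each tissue, led by the C-type lectins Clec4d (3.87 and 3.62) and Clec4e (3.53 and 3.61), and 7 of 8 tested companions of specific and gelatinase granules were called higher, led by Cd177 (3.05 and 5.00). All 6 attractants rose in both tissues, led by Il17a (7.64 and 6.65) and Cxcl5 (3.81 and 4.34), and all 6 erythroid markers fell in both.

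The HDM effect on Retnlg and Ngp was smaller at 11 weeks than at 3 weeks. In a fit of all libraries of both times, the effect at 11 weeks in air minus that at 3 weeks was -1.56 (adjusted p = 0.0018) for Retnlg and -1.69 (adjusted p = 0.025) for Ngp in airway, 2 of 8 members, where 28.4% of all genes differed. In parenchyma it was -1.69 (adjusted p = 8.5e-05) for Retnlg, -1.94 (adjusted p = 0.0012) for Ngp and -1.19 (adjusted p = 0.032) for Camp, 3 of 8, where 42.4% differed. The Camp difference did not pass in edgeR (adjusted p = 0.077) or DESeq2 (adjusted p = 0.067). In CPM, Retnlg was 36.01 to 116.6 CPM (median 65.1) in 3-week HDM parenchyma and 9.81 to 62.1 CPM (median 19.1) in 11-week HDM.AIR parenchyma, beside control medians of 17.7 and 19.9. S100a8 (0.06 (adjusted p = 0.92) in airway and -0.42 (adjusted p = 0.41) in parenchyma) and Lcn2 (0.55 (adjusted p = 0.22) and -0.13 (adjusted p = 0.78)) did not pass. Of 21 neutrophil markers, 13 had a lower effect at 11 weeks in parenchyma and 0 in airway. The 3-week and 11-week mice differed in HDM schedule and in exposure to air, which cannot be told apart from time.

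Cigarette smoke alone raised the alarmins, Lcn2 and Camp. In airway S100a8 was 27.7 to 105.2 CPM (median 62.1) in PBS.CS libraries (log2 fold change 1.24 ± 0.28 (SE), adjusted p = 0.00058), overlapping the PBS.AIR range, and S100a9 59.4 to 271 CPM (median 126.5) (1.38 (adjusted p = 9.1e-05)). Lcn2 was 448 to 1237 CPM (median 698) in airway (log2 fold change 2.79 ± 0.23 (SE), adjusted p = 3.4e-20) and 708 to 1749.7 CPM (median 1566) in parenchyma (log2 fold change 3.69 ± 0.24 (SE), adjusted p = 4.1e-29). Neither Lcn2 range overlapped that of PBS.AIR. Of 8 members, 4 were called higher in airway (S100a8, S100a9, Camp and Lcn2), where 2.78% of all genes were called, and 5 in parenchyma (the same 4 and Ltf), where 5.33% were called. In parenchyma S100a8 and S100a9 lay near the fold threshold (1.04 and 1.07), and both calls were lost in edgeR (0.93 and 0.98) and DESeq2 (0.92 and 0.97), where 3 members were called and the adjusted p-values of both genes stayed under the threshold. The parenchyma call of S100a8 was also lost without the pair out of code order (0.96). In airway the S100a8 call was lost in edgeR (0.89, adjusted p = 0.019) and DESeq2 (0.90, 0.011). Retnlg was not called in either tissue, with airway means of 23.2 CPM in PBS.CS and 11.7 CPM in PBS.AIR. In parenchyma its means were 35.7 and 22.5 CPM, and limma gave 0.70 (adjusted p = 0.03). The p threshold was not passed there without the pair out of code order (0.63, 0.066) or the libraries of outlying values (0.64, 0.067).

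Camp had its highest group medians in smoke-exposed parenchyma without HDM, with and without DEX. In parenchyma it was 0.147 to 0.859 CPM (median 0.320) in PBS.AIR and 0.559 to 3.43 CPM (median 0.892) in PBS.CS (log2 fold change 1.49 ± 0.29 (SE), adjusted p = 1.6e-05), and in airway 0 to 0.228 CPM (median 0.112) and 0.189 to 0.875 CPM (median 0.408) (log2 fold change 1.83 ± 0.39 (SE), adjusted p = 0.00017). With HDM added, Camp fell against smoke alone, to 0.202 to 0.683 CPM (median 0.306) in parenchyma (-1.53 (adjusted p = 4.3e-05)) and 0.0709 to 0.391 CPM (median 0.157) in airway (-1.23 (adjusted p = 0.0039)). Ngp, its neighbour in the granule, did not follow: its log2 fold changes with smoke were -0.59 (adjusted p = 0.44) in airway and -0.87 (adjusted p = 0.066) in parenchyma. A single PBS.CS parenchyma library held the highest Camp (3.43 CPM), Ngp (4.96 CPM) and Mpo (0.195 CPM) of its group, and without the pair of libraries out of code order, to which it belongs, Ngp fell with smoke in parenchyma (-1.28, adjusted p = 0.006). Mpo did not rise with smoke (0.03 (adjusted p = 0.98) and -0.63 (adjusted p = 0.41)), with 6 of 10 PBS.CS libraries of each tissue at 0.

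Ltf followed the tissue with smoke as well. It had a median of 57.2 CPM and a lowest value of 33.9 CPM in PBS.CS parenchyma (log2 fold change 1.96 ± 0.36 (SE), adjusted p = 3.5e-06) and 259.8 to 1995 CPM (median 472) in airway (0.18 (adjusted p = 0.84)), and the difference between tissues was -1.78 log2 units (adjusted p = 0.033). It was again the 1 member of 8 to pass, against 3.73% of genes, and it did not pass in edgeR (adjusted p = 0.084), in DESeq2 (0.06), without the filter (0.12) or without the pair out of code order (0.08). With code pairs as a random block Lcn2 also passed (-0.89, adjusted p = 0.01). Of the neutrophil markers, 13 of 21 rose with smoke in airway and 14 in parenchyma, led by the chemokine receptor Cxcr1 (2.77 and 3.28), with Clec4d (2.08) next in airway and Wfdc21 (2.72) in parenchyma. Of the attractants, 3 of 6 rose in airway and 4 in parenchyma, led by Cxcl5 (3.45 and 4.80) and Cxcl1 (2.74 and 4.08), and Cebpe, which rose with HDM, was not called (0.02 and 0.54). No erythroid marker was called with smoke.

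HDM and smoke together gave less than the sum of both on the log2 scale. Lcn2 was 797 to 2139 CPM (median 1619) in HDM.CS airway and 948 to 2198 CPM (median 1650.5) in HDM.CS parenchyma. S100a8 was 59.5 to 180.5 CPM (median 119.2) and 78.2 to 188.4 CPM (median 120.4). These ranges overlapped those of HDM.AIR, and against HDM.AIR the log2 fold changes of Lcn2 were -0.14 (adjusted p = 0.79) and -0.21 (adjusted p = 0.64). The interaction of HDM with smoke, the HDM effect in smoke minus that in air, was -2.94 (adjusted p = 2.6e-10) for Lcn2 in airway and -3.90 (adjusted p = 3.1e-17) in parenchyma. It passed for 4 of 8 members in airway, where 19.1% of genes passed, the others being S100a8 (-1.52), S100a9 (-1.57) and Camp (-2.22). In parenchyma it passed for 5, where 36% did: Lcn2, S100a8 (-1.56), S100a9 (-1.44), Camp (-1.44) and Ltf (-2.15). All 9 of these interactions were negative, and those of Retnlg, Ngp and Mpo did not pass in either tissue by limma. In edgeR and DESeq2 that of Ngp passed in parenchyma (-1.39, adjusted p = 0.046, and -1.41, 0.04), where limma gave -0.23 (0.78). The PBS.CS parenchyma library out of code order held the highest Ngp of its group, and edgeR and DESeq2 were not run without it. Of the neutrophil markers, 14 of 21 had a negative interaction in each tissue and none a positive one.

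**Figure D4:**
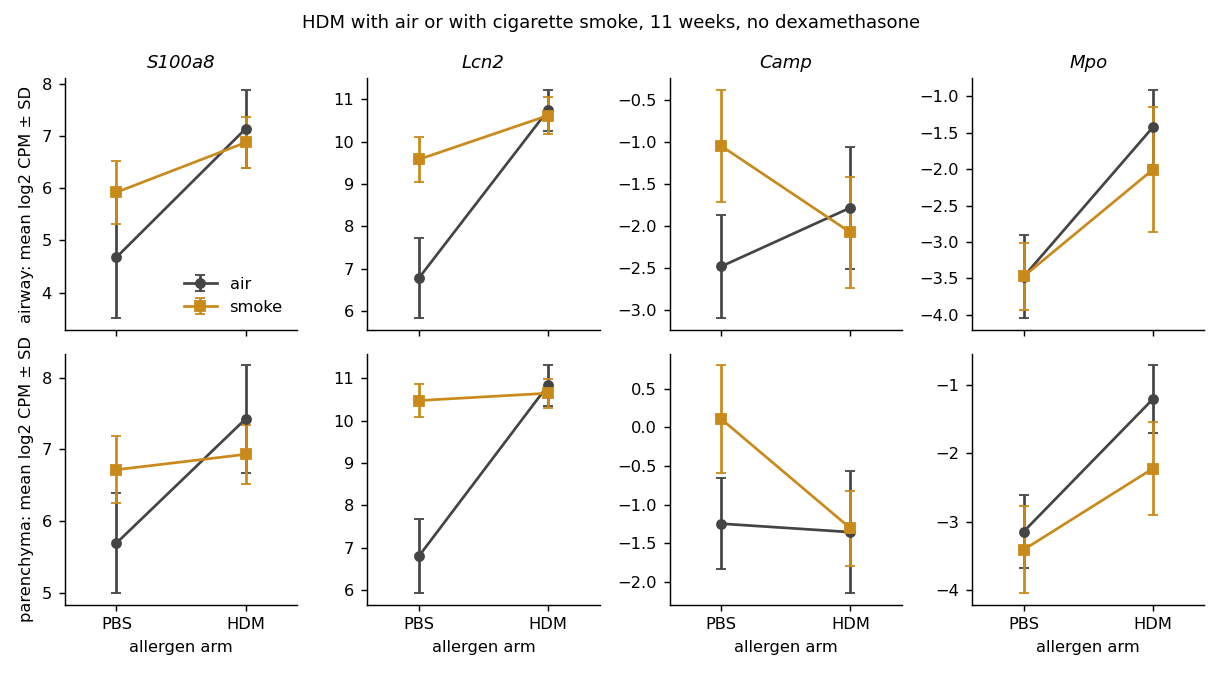
Mean log2 CPM (points) with SD over 10 libraries (error bars) of S100a8, Lcn2, Camp and Mpo in PBS and HDM mice at 11 weeks without DEX, airway above and parenchyma below, with 1 line for air and 1 for smoke. The smoke lines of Lcn2 and S100a8 are flatter than the air lines, and the smoke lines of Camp fall from PBS to HDM.

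Against PBS.AIR, HDM.CS airway had 5 members called higher, S100a8, S100a9, Retnlg (1.13), Lcn2 and Mpo (2.49), or 4 of 7 without Mpo, with 13.1% of genes called. In parenchyma 5 were higher, with Ltf (2.62) in the place of Retnlg, and Ngp was lower (-1.04 (adjusted p = 0.023)), or 5 of 7 called without Mpo, with 11.1% called. The S100a9 call there (1.09) was lost in edgeR (0.999, adjusted p = 0.0019) and DESeq2 (0.97, 0.0013). Every HDM.CS parenchyma library lay above every PBS.AIR library for Ltf, at 53.4 to 120.9 CPM. Against PBS.CS, 3 members were called in airway, Lcn2 (1.05) and Mpo (2.46) higher and Camp lower, or 2 of 7 without Mpo, with 6.4% of genes called. The Lcn2 call was lost in DESeq2 (0.99, adjusted p = 0.00015). In parenchyma 2 were called, Mpo (2.18) higher and Camp lower, or 1 of 7 without Mpo, with 2.94%. In edgeR and DESeq2 Ngp was also called lower there (-1.2, adjusted p = 0.048, and -1.23, 0.032), where limma gave -0.16 (0.9). Mean Ngp was 0.342 CPM in HDM.CS and 0.806 CPM in PBS.CS parenchyma, and mean log2 CPM was -1.32 and -1.09. The PBS.CS parenchyma library out of code order held the highest Ngp of its group, and edgeR and DESeq2 were not run without it. Adding smoke to HDM lowered Ngp in airway (-1.08 (adjusted p = 0.047)), the 1 member called, with 2.64% of genes called, and Ngp (-1.10 (adjusted p = 0.027)) and Mpo (-1.33 (adjusted p = 0.0035)) in parenchyma, or 1 of 7 without Mpo, with 4.36%. The airway call of Ngp was lost without the low-count filter (adjusted p = 0.069) and in the fit of all libraries of both times (0.077). In parenchyma that of Mpo was lost without the filter (0.098) and that of Ngp in the fit of both times (0.051). These comparisons share control libraries, and all 6 erythroid markers were higher in HDM.CS than in HDM.AIR in both tissues, with parenchyma sums of 5605 to 11936 CPM (median 8698) and 1445 to 7142 CPM (median 3737).

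DEX raised Lcn2 in mice without HDM or smoke. Lcn2 was 153.5 to 468 CPM (median 261) in PBS.AIR.DEX airway (log2 fold change 1.23 ± 0.21 (SE), adjusted p = 5.8e-06) and 218 to 509 CPM (median 381) in parenchyma (log2 fold change 1.72 ± 0.22 (SE), adjusted p = 1.4e-10), which overlapped the PBS.AIR range. It was the 1 member called in airway, with 2.41% of genes called, and without the libraries of outlying values Camp (0.84, adjusted p = 0.17) was called too (1.06, 0.05). In parenchyma 3 members rose, Lcn2, S100a8 (1.02 (adjusted p = 0.0028)) and Ltf (1.26 (adjusted p = 0.0062)), with 3.16% called. S100a8 was 67.8 to 149.1 CPM (median 103.99) there, with 15.02 to 61.5 CPM (median 39.04) for Ltf. S100a9 (0.95 (adjusted p = 0.0088)) and Retnlg (0.77 (adjusted p = 0.026)) passed the p threshold but not the fold. The S100a8 call in parenchyma was lost in edgeR (0.90, adjusted p = 0.011) and DESeq2 (0.89, 0.0068). That of Ltf was lost without the low-count filter (adjusted p = 0.099). The difference of the DEX effect between tissues passed for 0 of 8 members in limma, edgeR and DESeq2, and for 0 at an unadjusted p under 0.05, with 0.279% of genes passing (31 in favour of airway and 20 of parenchyma, or 23 and 23 with DESeq2 size factors). The differences ran from -0.97 for Ltf to 0.85 for Mpo. Of 21 neutrophil markers 6 rose with DEX in parenchyma, led by Cxcr1 (4.12) and Hdc (1.35), which encodes histidine decarboxylase, and all 6 erythroid markers fell, to a sum of 859.5 to 5188 CPM (median 3177).

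In HDM.AIR mice DEX lowered Mpo in parenchyma, the 1 member called by limma. Mpo was 0 to 0.350 CPM (median 0.150) with DEX against 0.171 to 0.720 CPM (median 0.361) without (log2 fold change -1.76 ± 0.39 (SE), adjusted p = 0.00017), 1 of 8 members or 0 of 7 without Mpo, with 6.02% of genes called. Mpo had passed the filter through libraries of HDM mice alone, so its selection depended on its level in them. Without the filter it gave -1.58 (adjusted p = 0.024) in the same parenchyma comparison. In edgeR and DESeq2 Ltf was also called lower there (-1.14, adjusted p = 0.012, and -1.13, adjusted p = 0.0093), where limma gave -0.67 (adjusted p = 0.1). A single HDM.AIR parenchyma library held 729.6 CPM of Ltf (group median 76.1), and edgeR and DESeq2 were not run without it. In airway 0 were called by limma, edgeR or DESeq2, with 5.86% of genes called by limma, 3 (S100a8, S100a9 and Camp) had an unadjusted p under 0.05, and Mpo gave -0.66 (adjusted p = 0.17). S100a8 had a median of 97.8 CPM with DEX and 143.3 without in airway (-0.67 (adjusted p = 0.059)), and 123.2 and 180.1 in parenchyma (-0.56 (adjusted p = 0.13)). In airway it passed the p threshold, but not the fold, in edgeR (-0.76, adjusted p = 0.029) and DESeq2 (-0.75, 0.023). It also did with the CPM filter of 10 (0.048), blocks of 20 library codes (0.049) and code pairs (0.045). S100a9 did in DESeq2 (0.042) and with blocks of 20 codes (0.044), where limma gave -0.68 (0.071). Lcn2 medians were 1652 and 1668 CPM in airway (-0.10 (adjusted p = 0.83)). In the same comparison Ly6g (-1.75) and Mrgpra2a (-1.73) led the 4 of 21 neutrophil markers that fell, and Cebpe (-1.25), Retnlb (-3.25), Retnla (-2.69), Slpi (-2.64) and Csf3 (-2.27), a growth factor for neutrophils, also fell in parenchyma, and Cxcr1 rose (2.49). Whether the DEX effect differed between HDM.AIR and PBS.AIR mice was not tested.

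In smoke-exposed mice no member was called with DEX. In PBS.CS mice 0 of 8 were called in airway, with 2.47% of genes called, and 0 in parenchyma, with 2.75%. In HDM.CS mice 0 of 8 were called in airway, with 2.04% of genes called, and 0 in parenchyma, with 2.03%. The edgeR and DESeq2 tests also called none in these 4 comparisons. An unadjusted p under 0.05 was reached in HDM.CS parenchyma alone, by 4 members, S100a8 (0.58), Retnlg (0.69), Camp (0.75) and Mpo (-0.96). S100a8 was 149.6 to 251 CPM (median 180.7) in HDM.CS.DEX parenchyma against 78.2 to 188.4 CPM (median 120.4) in HDM.CS, and 41.9 to 224 CPM (median 122.8) in PBS.CS.DEX against 64.99 to 161.5 CPM (median 114.6) in PBS.CS. Lcn2 medians in airway were 822 CPM with DEX and 698 without in PBS.CS mice, and 1247 and 1619 in HDM.CS mice. Camp remained at 0.503 to 1.37 CPM (median 0.931) in PBS.CS.DEX parenchyma, its highest group median. All 6 erythroid markers fell with DEX in both smoke backgrounds and both tissues.

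Within groups, the calprotectin transcripts varied together most closely. After each group's mean was removed, S100a8 and S100a9 had a Pearson r of 0.962 and a Spearman rho of 0.963 over the 43 libraries at 3 weeks and the 160 at 11 weeks (adjusted p = 3.1e-05 over 28 pairs, from the smallest p that 100000 permutations within groups can give). The r was 0.972 in airway (adjusted p = 4.7e-05), 0.947 in parenchyma (7e-05), permuted apart, and 0.959 without the 2 libraries farthest from the median. Retnlg followed S100a9 (r = 0.661, rho = 0.674) and S100a8 (r = 0.583), and Lcn2 followed S100a8 (r = 0.478, rho = 0.492). Camp and Ngp had an r of 0.419 (rho = 0.371), from few counts. Ltf had a negative r with S100a8 (-0.319 in all), which was -0.523 in airway and 0.049 in parenchyma, and over all libraries Mpo passed with no other member, its highest r being 0.157 with Ngp (adjusted p = 0.055). With the tissues apart, Mpo passed with S100a8 (-0.235, adjusted p = 0.035) and Lcn2 (-0.226, 0.044) in airway and with Camp (0.240, 0.036) in parenchyma. The code pairs deviate together, so the points of both tissues are not independent and their joint p-values are too small.

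**Figure D5:**
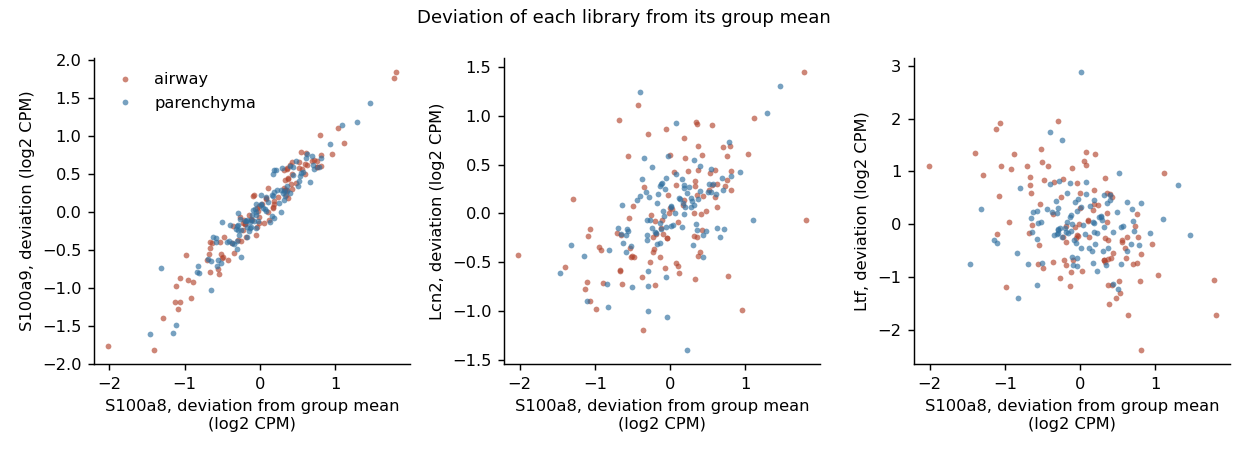
Deviation of log2 CPM from the group mean of S100a9, Lcn2 and Ltf (vertical axes) against that of S100a8 (horizontal axes), with 1 point per library, coloured by tissue. S100a9 lies along a line (r = 0.962), Lcn2 scatters more widely (r = 0.478), and Ltf falls in airway (r = -0.523) and not in parenchyma (r = 0.049).

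The genes nearest to each member by this measure, among 18528, differed. Nearest to S100a8 outside the 9 were Gm5483 (r = 0.851), Stfa2l1 (0.846) and BC100530 (0.776), of which the last pair are listed neutrophil markers. Nearest to Lcn2 were Saa3 (0.808), Hsd11b2 (0.663) and Il1r2 (0.661). Nearest to Camp were Tmem243 (0.467), Fbxo6 (0.452) and Unc119 (0.431), and nearest to Mpo were Adam6b (0.368), Ighg2b (0.359) and 5830418P13Rik (0.347). The median r to the 21 neutrophil markers was 0.605 for S100a8, 0.569 for S100a9, 0.408 for Lcn2, 0.365 for Retnlg, 0.184 for Ngp, 0.172 for Camp, -0.068 for Mpo and -0.215 for Ltf. To the 6 parenchyma markers it was 0.468 for S100a8, 0.459 for S100a9, 0.407 for Retnlg, 0.311 for Camp, 0.296 for Ngp, 0.12 for Lcn2, -0.147 for Mpo and -0.604 for Ltf, so that Retnlg, Camp and Ngp had a higher median r to these than to the neutrophil markers. The part of the dissected tissue in these values was not tested. Ltf had a median r of 0.654 to the 5 airway markers and 0.618 to the 6 epithelial antimicrobial genes. Its nearest genes, looked up after its other values were seen, were Tmc5 (0.883), A2ml1 (0.882) and Dmbt1 (0.868), the last an epithelial scavenger receptor. Genes are not independent replicates, and these r values are descriptions.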

How the data were processed

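RNA of airway and parenchyma from female Balb/C mice was sequenced by the authors as 100-base single reads. The study's methods and the submitters' processing notes name STAR 2.5.1b, RSEM 1.2.31, kallisto 0.44.0 and mm10, without saying which quantifier made the table. The deposited values are estimated counts per gene and library, of which 20.3% of the non-zero ones were not whole. All non-zero values of the 9 genes were whole. Identifiers were matched to symbols for 42462 of 43346 (97.96%).

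Counts were rounded, scaled by TMM, filtered (10 counts, as CPM, in 9 or more libraries) and fitted with limma-voom (limma 3.58.1, edgeR 4.0.16, R 4.3.3) with 1 mean per group, in separate fits of the 43 libraries at 3 weeks and the 160 at 11 weeks, and of all 203 for time. P-values were adjusted over all genes tested. Alternatives were the edgeR quasi-likelihood test, DESeq2 1.42.0 and its size factors, no filter, CPM of at least 10 in 9 libraries, all libraries in 1 fit, blocks of 20 library codes, leaving out each library, and, added after the data were seen, leaving out the library rich in Gm42418 or those with an outlying value, and pairs of consecutive library codes as a random block (duplicateCorrelation). The scripts were tested on simulated data. The 9 genes were examined in each comparison in which they were tested, but not every value is given. From the gene lists the 2 largest called changes in each direction were named. Other listed genes, named for their role, were chosen after their values were seen. The 3 genes with the highest within-group r to S100a8, Camp, Lcn2 and Mpo were named. The members and the lists were chosen with earlier results of these data known, so no list is independent evidence. Within-group correlations used log2 CPM with a prior count of 2, less the group mean. Promoter sequences came from RefSeq on GRCm38.p6. No pair of libraries of 1 group agreed within sampling noise.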

Additional observations from a re-analysis of the deposited data

Results flagged for a closer look

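In groups of 10 or fewer libraries, each group was examined, for each member with counts, for a library far from the others. Of these combinations 10 held one, 7.04%, where chance at 1 in 20 would give about 7.1. A single 11-week HDM.AIR.DEX airway library was lowest for both alarmins, with 33.97 CPM of S100a8 (group median 97.83) and 42.4 CPM of S100a9 (172.3), and an HDM.AIR.DEX parenchyma library was lowest for S100a9, with 71.81 CPM (194.9). In PBS.CS parenchyma, the library out of code order was highest for Camp, at 3.435 CPM (0.8922), and for Mpo, at 0.1951 CPM (0). Its partner out of code order in PBS.CS airway was highest for Ngp, at 1.027 CPM (0.2284). An HDM.AIR parenchyma library had 729.6 CPM of Ltf (76.09). A 3-week HDM parenchyma library had 5218 CPM of Lcn2 (2285), and a PBS.CS parenchyma library had the lowest Lcn2 of its group, 708.1 CPM (1567). A PBS.AIR.DEX airway library had 0.1666 CPM of Mpo (0).

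The effects of 1 exposure differed between backgrounds, tissues or times by a test of the difference itself for 17 combinations of member and comparison. The interaction of HDM with smoke was -1.516 log2 units for S100a8, -1.572 for S100a9, -2.221 for Camp and -2.935 for Lcn2 in airway. In parenchyma it was -1.557 for S100a8, -1.442 for S100a9, -1.435 for Camp, -2.145 for Ltf and -3.897 for Lcn2. Their limma adjusted p-values ran from 0.0072 for Camp in parenchyma to 3.1e-17 for Lcn2 in parenchyma.

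The effect on Ltf, airway minus parenchyma, was -1.894 log2 units for HDM at 3 weeks, -2.639 for HDM at 11 weeks and -1.778 for smoke. The HDM effect at 11 weeks minus that at 3 weeks was -1.564 for Retnlg and -1.69 for Ngp in airway, and -1.691 for Retnlg, -1.186 for Camp and -1.938 for Ngp in parenchyma. Of these, the smoke difference of Ltf had the highest limma adjusted p (0.033).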

How the results depend on the processing

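No member reversed its direction where its change was called. Of 2438 member fold changes under other settings, 2391 kept their side of the p threshold, 25 newly passed and 22 no longer passed. Of 320 counts of members called, 292 stayed within 1.5 times the reported count. With 1 library left out in turn, 37 of 240 differences of mean log2 CPM changed sign, none of them with a limma adjusted p under 0.05. The filter at a CPM of at least 10 in 9 libraries removes Camp, Ngp and Mpo. Under it the members called numbered 3 instead of 5 between the tissues of 3-week PBS mice, 0 instead of 1 for HDM.CS against HDM.AIR in airway and 0 instead of 2 in parenchyma, 1 instead of 3 for HDM.CS against PBS.CS in airway and 0 instead of 2 in parenchyma, 0 instead of 1 for HDM.AIR.DEX against HDM.AIR in parenchyma, and 1 instead of 2 in airway and 1 instead of 3 in parenchyma for the HDM effect at 11 against 3 weeks. With edgeR and with DESeq2 the HDM effect at 3 weeks differed between tissues for 2 members instead of 1, as it did with blocks of 20 library codes (Lcn2 being added), smoke in parenchyma called 3 instead of 5, HDM.AIR.DEX against HDM.AIR in parenchyma 2 instead of 1, and the tissue difference of smoke 0 instead of 1. Without the filter that difference also gave 0, and HDM.CS against HDM.AIR gave 0 in airway and 1 in parenchyma, as it did in a fit of both times together, where the tissues of PBS.AIR mice differed for 5 members instead of 3. Without the pair of PBS.CS libraries out of code order the latter count was also 5 and the tissue difference of smoke 0. Without the libraries of outlying values, chosen after seeing the data, DEX called 2 members instead of 1 in PBS.AIR airway. The causes were not tested where removal of genes or libraries does not show them. The log2 ratio of the highest to the lowest group level of Camp was 2.41 with log2 CPM at a prior count of 2, the 1 that moved of 14 such values.

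A paired analysis took each odd library code with the next even code as a random block, chosen after seeing the data, since the labels do not say which libraries came from 1 mouse. The correlation within a block was 0.127 at 3 weeks and 0.349 at 11 weeks. This pairing raised the members that differed between tissues at 11 weeks from 1 to 4 for HDM and from 1 to 2 for smoke, and changed no other count. Values of Camp, Ngp, Mpo and Elane rest on few counts, and for Elane no difference was detectable at this depth. Another scaling moved the median over all genes by at most 0.09 log2 units.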

Other observations

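Several groups of genes outside the neutrophil lists moved in the same comparisons and are given as values, from lists chosen with earlier results of these data known. Of 4 megakaryocyte and platelet genes, 2 fell with HDM in 3-week airway and 1 rose. Gp9, a subunit of the von Willebrand factor receptor, had log2 fold changes of -1.81 in airway and -1.59 in parenchyma, and Ppbp, a platelet chemokine precursor, -1.13 and -1.63, whereas Pf4, platelet factor 4, rose by 1.24 and 2.30 and at 11 weeks by 1.58 and 2.56. Of 6 eosinophil genes tested, Prg2, the precursor of major basic protein, rose with HDM at 3 weeks (3.05 in airway and 5.28 in parenchyma) and fell with DEX in PBS.AIR mice (-1.42 and -1.80). The eosinophil-associated ribonuclease genes Ear1 (-2.37 and -1.91) and Ear2 (-1.45 and -1.24) also fell with DEX in those mice. Siglecf, shared with alveolar macrophages, rose with HDM at 3 weeks (1.73 and 1.10).

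Dntt, the terminal transferase of developing lymphocytes, was higher with HDM at 3 weeks (1.96 in airway and 2.33 in parenchyma) and lower with DEX in PBS.AIR mice (-3.13 and -2.21). Of the mast cell genes, Mcpt4, a connective tissue mast cell protease, fell with HDM at 11 weeks (-3.03 in airway and -1.60 in parenchyma), and Cpa3, mast cell carboxypeptidase, fell in airway (-1.75). The cartilage genes Acan (-3.20) and Col2a1 (-2.07) fell with HDM in 11-week airway. Of 6 parenchyma markers, 4 fell with HDM in 3-week parenchyma, led by Hopx (-1.84) and Rtkn2 (-1.82), both expressed by alveolar type I cells, and Lamp3, a lamellar body protein of type II cells, rose with HDM in 11-week airway (1.27). All these changes were called by limma at an adjusted p under 0.05.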
